A study of Mus musculus with 13 samples.

Results

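Nephron segments beyond the proximal tubule were followed through 37 genes, taken by symbol from a list chosen with earlier results of these data known. All 37 were found among the 35013 genes counted and passed the filter on low counts. They comprise 9 genes of the thick ascending limb and macula densa, 7 of the distal convoluted tubule with its WNK-SPAK kinases, 4 of connecting tubule calcium transport, 8 of principal cells, 4 of intercalated cells and 5 shared subunits, enzymes and transcription factors. The data are 13 libraries of nascent kidney RNA from female mice, with 4 libraries labelled Spns1 KO, 5 WT and 4 FeO. All mice carried Megalin3'Cre-Ert and Uprt flox/+, the latter for an enzyme that puts injected 4-thiouracil into new RNA of cells in which Cre has acted. Spns1, an endolysosomal transporter, was flox/flox in Spns1 KO and flox/+ in WT and FeO, so the controls also carried a floxed allele, although the sample labels call them Spns1 WT. All mice received tamoxifen to activate Cre, which acts from the promoter of megalin, an endocytic receptor of the proximal tubule. FeO mice were injected with 12 mg of iron, given as iron sucrose, on each of 3 days and were euthanized 1 week later. The labels name this treatment dietary, whereas their protocol describes injection, and the age of the mice is not given in the sources used here.

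The thick ascending limb reabsorbs salt without water and drives calcium and magnesium through a paracellular path of claudins. The macula densa at its end senses salt delivery. The distal convoluted tubule takes up sodium chloride under control of WNK kinases and SPAK, and the connecting tubule moves calcium across the cell through an entry channel, a buffer protein and basolateral pumps. In the collecting duct, principal cells absorb water through aquaporins under vasopressin and sodium through ENaC, while intercalated cells secrete acid or base. None of these segments is the one in which the megalin driver is meant to act.

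Promoter sequence is shown for the members with the largest rise in each model and for Aqp2, the water channel that vasopressin regulates, because the segment factors named among the members act on DNA. Of the 37 members, 31 matched a RefSeq entry (GRCm38.p6), with 36 promoters, and the 250 bases before each start were searched on both strands. The letters searched were AGATAA for GATA factors such as Gata3, GTAAACA for forkhead factors such as Foxi1, GCCNNNGGC for AP-2 factors such as Tfap2b, and TGACGT as the core of the cAMP response element. Capitals mark a match on either strand, and no marked matches overlap each other.
Cldn10 start 1, chr14:118787621-118787870, plus strand: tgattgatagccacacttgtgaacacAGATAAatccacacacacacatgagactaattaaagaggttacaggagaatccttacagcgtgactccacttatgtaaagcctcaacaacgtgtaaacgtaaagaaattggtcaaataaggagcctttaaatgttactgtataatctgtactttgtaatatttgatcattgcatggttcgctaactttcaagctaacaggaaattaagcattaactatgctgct
Cldn10 start 2, chr14:118854700-118854949, plus strand: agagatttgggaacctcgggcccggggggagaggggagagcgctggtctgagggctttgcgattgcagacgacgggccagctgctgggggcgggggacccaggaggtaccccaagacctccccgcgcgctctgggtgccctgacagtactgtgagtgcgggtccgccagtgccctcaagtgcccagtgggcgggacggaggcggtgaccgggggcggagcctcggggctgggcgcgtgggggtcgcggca
Pvalb start 1, chr15:78206401-78206650, minus strand: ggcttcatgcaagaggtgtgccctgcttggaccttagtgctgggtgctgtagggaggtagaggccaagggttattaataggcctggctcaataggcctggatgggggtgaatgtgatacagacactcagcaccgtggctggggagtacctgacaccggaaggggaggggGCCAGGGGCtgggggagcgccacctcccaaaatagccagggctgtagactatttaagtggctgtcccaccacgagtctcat
Pvalb start 2, chr15:78204238-78204487, minus strand: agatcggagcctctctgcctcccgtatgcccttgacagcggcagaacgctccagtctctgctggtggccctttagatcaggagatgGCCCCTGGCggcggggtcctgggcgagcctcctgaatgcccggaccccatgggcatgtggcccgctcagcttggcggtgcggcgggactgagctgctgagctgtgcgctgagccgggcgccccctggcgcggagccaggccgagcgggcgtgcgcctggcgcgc
Aqp2, chr15:99578806-99579055, plus strand: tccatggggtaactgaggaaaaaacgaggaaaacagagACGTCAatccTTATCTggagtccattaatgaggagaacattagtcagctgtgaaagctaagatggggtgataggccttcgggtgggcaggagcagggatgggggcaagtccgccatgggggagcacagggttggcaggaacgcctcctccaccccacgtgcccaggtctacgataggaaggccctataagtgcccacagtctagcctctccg
Avpr2, chrX:73891852-73892101, plus strand: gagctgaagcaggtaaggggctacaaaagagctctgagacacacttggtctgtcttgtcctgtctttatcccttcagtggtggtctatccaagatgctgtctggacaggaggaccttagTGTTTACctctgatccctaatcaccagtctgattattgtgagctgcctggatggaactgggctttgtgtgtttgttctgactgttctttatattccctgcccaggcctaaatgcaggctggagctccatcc

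The claudin Cldn10 has separate starts that give isoforms of the proximal tubule and the thick ascending limb, and gene counts do not separate them. Its start 1 held AGATAA, as did Aqp2 beside the cAMP core, while both Pvalb starts held the AP-2 letters and Avpr2 held the forkhead letters. Among all member promoters, 13.9% held AGATAA against 9.99% of 32851 promoters. For GTAAACA the shares were 11.1% and 3.17%, for GCCNNNGGC 30.6% and 13.7%, and for TGACGT 5.56% and 6.47%. A match is a description of these letters and not a bound site.

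Library totals ran from 31809135 to 71296474 counts in Spns1 KO, 23068023 to 37362311 in WT and 25986133 to 29981814 in FeO. Spns1 itself ranged from 36.6 to 59.0 CPM (counts scaled to library size) in libraries labelled Spns1 KO and from 39.2 to 62.9 in WT, so its counts did not separate the groups. The floxed allele loses exon 3, whereas the count covers the whole gene. The part of this in the Spns1 counts was not tested. The paper reports loss of Spns1 RNA and protein in proximal tubules of Megalin3'Cre-Ert;Spns1 flox/flox mice. The labelled cell type is proximal tubule, and its 12 markers were detected, with Lrp2 (megalin) at the 93.4th percentile of WT level per kilobase of transcript among 16187 tested genes. Members of other segments were also abundant on that scale, with Slc12a1 at the 99.6th percentile, Umod at 99.5, Slc12a3 at 99.2 and Aqp2 at 99.0. Summed proximal tubule markers reached 8731 to 10473 CPM in Spns1 KO, 4404 to 6146 in WT and 2443 to 6911 in FeO, where FeO 1 was lowest. The members were split into 29 treated as restricted to these segments and 8 broadly expressed ones (Cldn10, Trpm7, Wnk1, Stk39, Slc8a1, Atp2b1, Hsd17b11 and Fxyd2). The 29 include Slc4a1, which also encodes the band 3 protein of red cells. The summed CPM of the restricted members divided by that of the proximal markers was 0.569 to 0.741 in Spns1 KO and 0.627 to 1.42 in WT. In FeO 1 to 4 it was 3.94, 0.604, 0.758 and 2.01. FeO 1 thus stood apart, and it was the highest of all 13 libraries for 19 of the 37 members. WT 4 was the highest WT library for 24 of them. The libraries hold tagged RNA captured from whole kidney. In them, the number of cells of a type, the RNA per cell and how much RNA of each segment was captured cannot be told apart. The part of these library differences in the results was not tested.

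**Figure D1:**
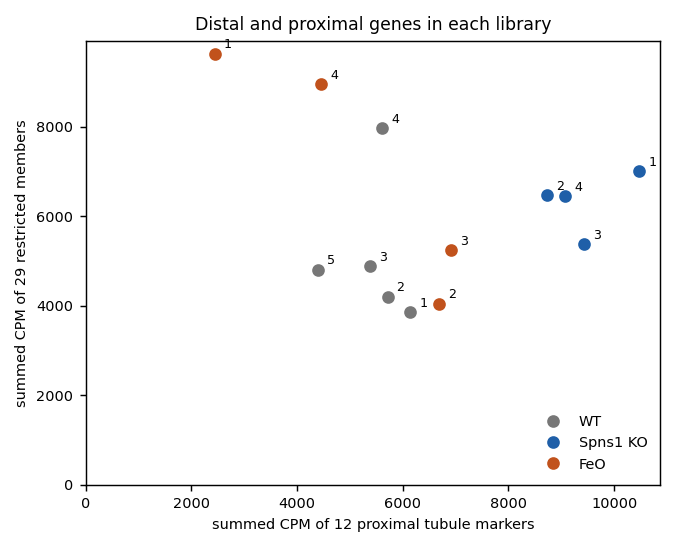
Summed CPM of the 29 restricted members (vertical) against summed CPM of the 12 proximal tubule markers (horizontal), 1 point per library, numbered by replicate and coloured by group. FeO 1 and FeO 4 sit at the upper left, at 9632 and 8948 CPM of members, and the Spns1 KO libraries sit at the right, at 8731 to 10473 CPM of proximal markers.

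The study set a genetic and an injected model of iron overload against the same WT libraries, and the models were also compared with each other directly. In Spns1 KO, Umod, Cldn10, Pvalb, Slc4a1 and Hsd17b11 were upregulated and Trpm6, Wnk1, Stk39, Scnn1g, Foxi1 and Gata3 were downregulated. A gene was called when the quasi-likelihood test of edgeR gave a Benjamini-Hochberg adjusted p under 0.05 over 16468 genes and its log2 fold change was beyond 0.5. Differences between the models are given as Spns1 KO minus FeO. These 5 and 6 of 37 members, 13.5% and 16.2%, compare with 14.0% of all tested genes called up and 7.55% called down. In FeO, 14 members were upregulated (37.8%, against 22.4% of all tested genes) and 2 were downregulated (5.41%, against 19.7%). The FeO upregulated genes were Kcnj1, Cldn10, Cldn16, Cldn19, Ptger3, Stk39, Aqp2, Aqp3, Aqp4, Avpr2, Fxyd4, Slc4a1, Bsnd and Hsd17b11, and the downregulated genes were Trpm7 and Atp2b1. Between the models, 13 members were lower in Spns1 KO than in FeO (35.1%, against 8.1% of all tested genes) and in edgeR only Atp2b1 was higher (2.70%, against 6.76%). The median log2 fold change over the members was -0.13 in Spns1 KO, 0.51 in FeO and -0.56 between the models, beside -0.05, -0.01 and 0.03 over all tested genes. Among the 29 restricted members the calls were 3 up and 4 down in Spns1 KO, 11 up in FeO and 11 down between the models. Slc4a1, also a red cell gene, is among those up in both models. In FeO and between the models, the opposite directions held 0 calls in edgeR. In FeO 0 restricted members were lower at an unadjusted p under 0.05, and 0 were called so by DESeq2 or limma-voom, while between the models Egf and Pvalb were higher at an unadjusted p under 0.05, with 2 calls in DESeq2 and 1 in limma-voom.

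Some of these counts rested on single libraries. Without FeO 1, 10 members were called up in FeO and 6 were called lower in Spns1 KO than in FeO. Without FeO 2 the FeO count was 19. Over all tested genes, 3294 were up in FeO and 636 lower in Spns1 KO than in FeO without FeO 1. With all libraries these were 3691 and 1334, and without FeO 2, 4042 genes were up in FeO. Downregulated members in Spns1 KO numbered 1 without Spns1 KO 3, 3 without Spns1 KO 2 and 2 without WT 3, WT 4 or WT 5. Over all tested genes, 1243 were down with all libraries. There were 504 without Spns1 KO 3, 525 without Spns1 KO 2 and 560, 838 and 952 without WT 3, WT 4 and WT 5. Upregulated members numbered 3 without any one of Spns1 KO 1, 2 or 3 or WT 1, 2 or 3. Those fits called 1531 to 2055 of all tested genes up, against 2307 with all libraries. When library totals alone set the scale, the median of all genes in Spns1 KO against WT moved to -0.18, and 3 members were called up and 7 down. Over all genes that scaling gave 1739 up and 2086 down, against 2307 and 1243 with TMM factors, and leaving out Spns1 KO 4 gave 3003 and 2677. A test against the fold limit itself (glmTreat) left as calls only Pvalb in Spns1 KO, Cldn10, Cldn19, Aqp2, Aqp3, Avpr2, Slc4a1, Hsd17b11 and Trpm7 in FeO, and Stk39, Aqp2, Aqp4 and Avpr2 between the models. With a fit of the 2 groups alone, the differences between the models in Cldn19, Aqp3, Scnn1a, Slc26a4 and Foxi1 did not pass. DESeq2 added calls for Trpm7 and Fxyd4 in Spns1 KO, Wnk1 and Scnn1a in FeO, and Egf, Pvalb, Kcnj1, Cldn16 and Scnn1b between the models. The labels do not say that each library is a separate mouse, so p-values measure the spread between these libraries.

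**Figure D2:**
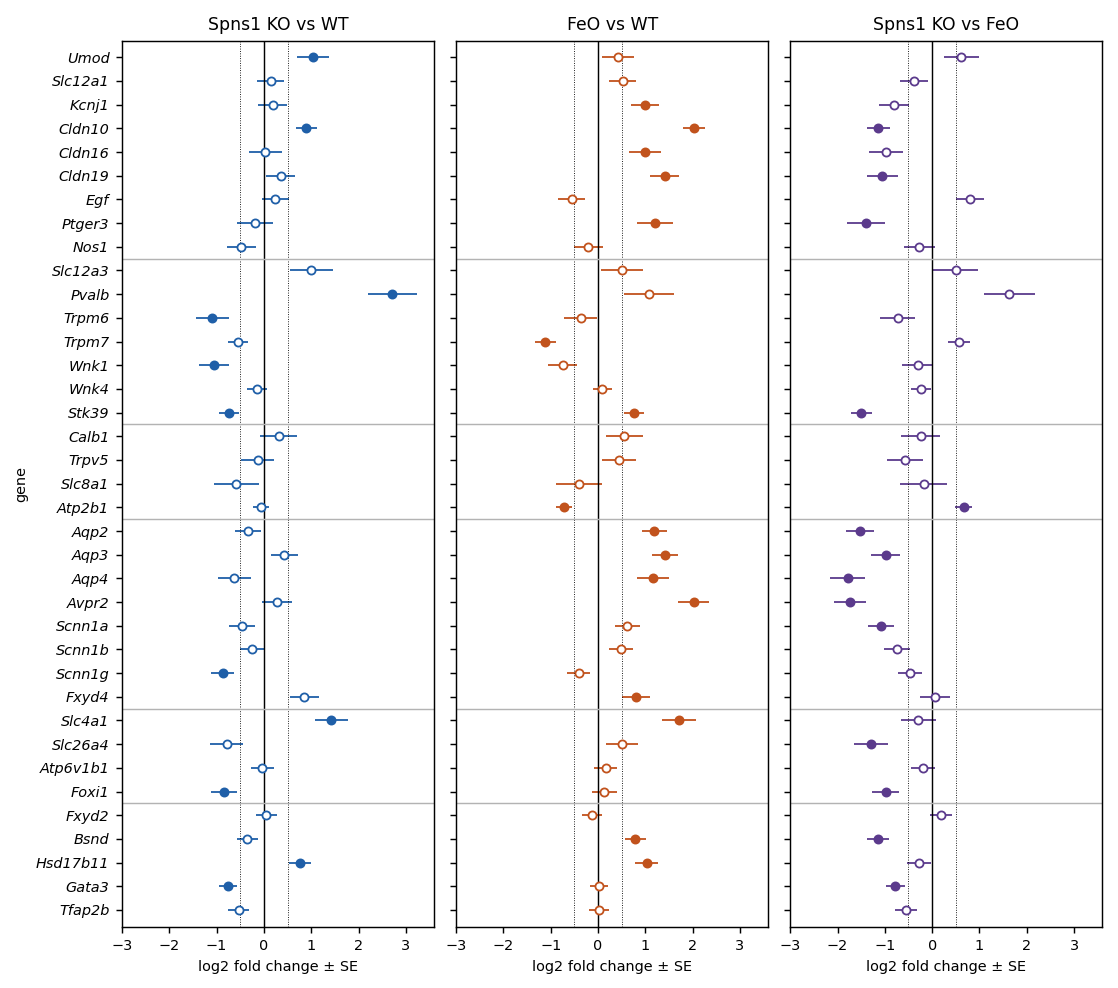
Log2 fold change with its standard error (bars) for the 37 members, in rows by segment, in Spns1 KO against WT, FeO against WT and Spns1 KO against FeO. Filled points passed both limits, dotted lines mark log2 fold changes of -0.5 and 0.5, and the right panel holds 13 filled points left of 0 and 1 to the right.

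Thick ascending limb genes gave 2 calls in Spns1 KO and 5 in FeO, all of them up, among 9 members (22.2% and 55.6%). Of all tested genes, 14.0% and 22.4% were called up. Cldn10, called in both models, is among the broadly expressed members. The median log2 fold changes of the 9 were 0.18 and 1.00. Umod (chromosome 7 from 119462711 to 119479282; gene coordinates here and below are GRCm38, GENCODE M21) encodes uromodulin, the main protein of normal urine. Umod measured 469, 476, 544, 662 and 492 CPM in WT 1 to 5, 1248, 1223, 1108 and 768 in Spns1 KO 1 to 4 and 702, 275, 449 and 1407 in FeO 1 to 4. Every Spns1 KO library lay above every WT library, while FeO spread across the WT and Spns1 KO levels, with FeO 2 lowest and FeO 4 highest of all. Umod was upregulated in Spns1 KO by 1.04 (standard error 0.34, edgeR adjusted p = 0.0398) on the log2 scale, and the FeO value was 0.42 (standard error 0.34, edgeR adjusted p = 0.326). The Spns1 KO call was lost without Spns1 KO 1, 2 or 3 or WT 1, 2, 3 or 5 (log2 fold changes of 0.97 to 1.07, edgeR adjusted p from 0.0648 to 0.103), and the FeO value was -0.13 without FeO 4 (edgeR adjusted p = 0.716). Length and GC correction or scaling by library totals also ended the call, at 1.00 and 0.91.

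Slc12a1 (chromosome 2 from 125152505 to 125230002) encodes NKCC2, the apical salt carrier that marks this segment. Slc12a1 measured 896, 994, 1127, 1774 and 617 CPM in WT 1 to 5, 1456, 1104, 975 and 1230.4 in Spns1 KO 1 to 4 and 1979.9, 1011, 1246 and 1964 in FeO 1 to 4. All groups overlapped, and its log2 fold changes were 0.14 (standard error 0.29, edgeR adjusted p = 0.746) in Spns1 KO and 0.52 (standard error 0.28, edgeR adjusted p = 0.145) in FeO. Without WT 4 the FeO value passed the limits, at 0.79 (edgeR adjusted p = 0.0234). Kcnj1 (chromosome 9 from 32372493 to 32399197) encodes ROMK, the potassium channel that works beside NKCC2. Kcnj1 measured 154, 150.0, 207, 325 and 184 CPM in WT 1 to 5, 269, 262, 218 and 178 in Spns1 KO 1 to 4 and 653, 190.2, 368 and 417 in FeO 1 to 4. FeO 2 fell inside the WT range and the other FeO libraries lay above it. Kcnj1 rose in FeO by 1.00 (standard error 0.30, edgeR adjusted p = 0.0149), a call lost without FeO 1 (0.69, edgeR adjusted p = 0.0678), and its Spns1 KO value was 0.18.

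All 3 claudin members were upregulated in FeO, and Cldn10 in Spns1 KO as well. Cldn10 (chromosome 14 from 118787908 to 118875489), whose start sites are printed above, measured 30.1, 33.8, 31.2, 41.6 and 40.8 CPM in WT 1 to 5, 66.6, 76.6, 79.5 and 41.8 in Spns1 KO 1 to 4 and 198, 90.2, 158 and 136 in FeO 1 to 4. Every FeO library exceeded every Spns1 KO library, and every Spns1 KO library exceeded every WT library, Spns1 KO 4 by a narrow margin. Its log2 fold change was 2.03 (standard error 0.23, edgeR adjusted p = 0.000292) in FeO and 0.90 (standard error 0.22, edgeR adjusted p = 0.0105) in Spns1 KO, and the models differed by -1.14 on the log2 scale (standard error 0.24, edgeR adjusted p = 0.0084). Cldn19 (chromosome 4 from 119255414 to 119262438) and Cldn16 (chromosome 16 from 26463135 to 26482765) encode partners in the pore for divalent cations. Cldn19 measured 9.67, 11.4, 15.8, 22.0 and 10.3 CPM in WT 1 to 5, 21.7, 20.6, 18.6 and 9.67 in Spns1 KO 1 to 4 and 59.0, 23.5, 29.5 and 34.7 in FeO 1 to 4. FeO lay wholly above both other groups, which overlapped each other. Cldn19 rose in FeO by 1.41 (standard error 0.31, edgeR adjusted p = 0.00235) and differed between the models by -1.06 (standard error 0.33, edgeR adjusted p = 0.0409). The difference between the models was lost without Spns1 KO 1, 2, 3 or 4, WT 2 or 3 or FeO 1 or 3 (log2 fold changes of -1.17 to -0.72, edgeR adjusted p from 0.0512 to 0.151).

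Cldn16 measured 6.51, 6.66, 6.93, 6.04 and 6.79 CPM in WT 1 to 5, 7.71, 6.38, 8.75 and 4.10 in Spns1 KO 1 to 4 and 23.7, 4.80, 9.15 and 15.0 in FeO 1 to 4. Levels were low, FeO 2 was below WT and the other FeO libraries were above it. The FeO rise of 1.00 (standard error 0.34, edgeR adjusted p = 0.0259) was lost without FeO 1 (0.56, edgeR adjusted p = 0.148), and also after length and GC correction (0.55) and with limma-voom (0.76). Ptger3 (chromosome 3 from 157566892 to 157645888) encodes EP3, a prostaglandin E2 receptor of this segment. Ptger3 measured 39.9, 48.6, 68.5, 129 and 49.5 CPM in WT 1 to 5, 98.2, 41.5, 59.8 and 35.0 in Spns1 KO 1 to 4 and 231, 77.5, 167 and 145 in FeO 1 to 4. WT 4 reached into the FeO range, and FeO 2 lay inside the WT range. Ptger3 rose in FeO by 1.21 (standard error 0.38, edgeR adjusted p = 0.0174), a call lost without FeO 1 (0.97, edgeR adjusted p = 0.062). It was lower in Spns1 KO than in FeO, at a log2 difference of -1.40 (standard error 0.41, edgeR adjusted p = 0.0317), which was lost without Spns1 KO 2, 3 or 4 or FeO 1 or 3 (log2 fold changes of -1.41 to -1.15, edgeR adjusted p from 0.0521 to 0.098). Egf, the precursor of epidermal growth factor, averaged 793 ± 261 CPM (SD, n = 5) in WT, 938 ± 141 CPM (SD, n = 4) in Spns1 KO and 539 ± 236 CPM (SD, n = 4) in FeO. Nos1, the neuronal nitric oxide synthase of the macula densa, ranged over 1.66 to 3.11 CPM, 1.37 to 2.76 and 1.30 to 3.19 in the same order. Neither passed the limits in edgeR in any comparison, and Egf had opposite signs, 0.24 in Spns1 KO and -0.56 in FeO. Without FeO 4 the FeO value of Egf was -0.83 (edgeR adjusted p = 0.0274). Between the models Egf differed by 0.80 (standard error 0.30, edgeR adjusted p = 0.0801), a value that passed with DESeq2 (0.79), without WT 4 (0.81) and without FeO 4 (1.09).

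**Figure D3:**
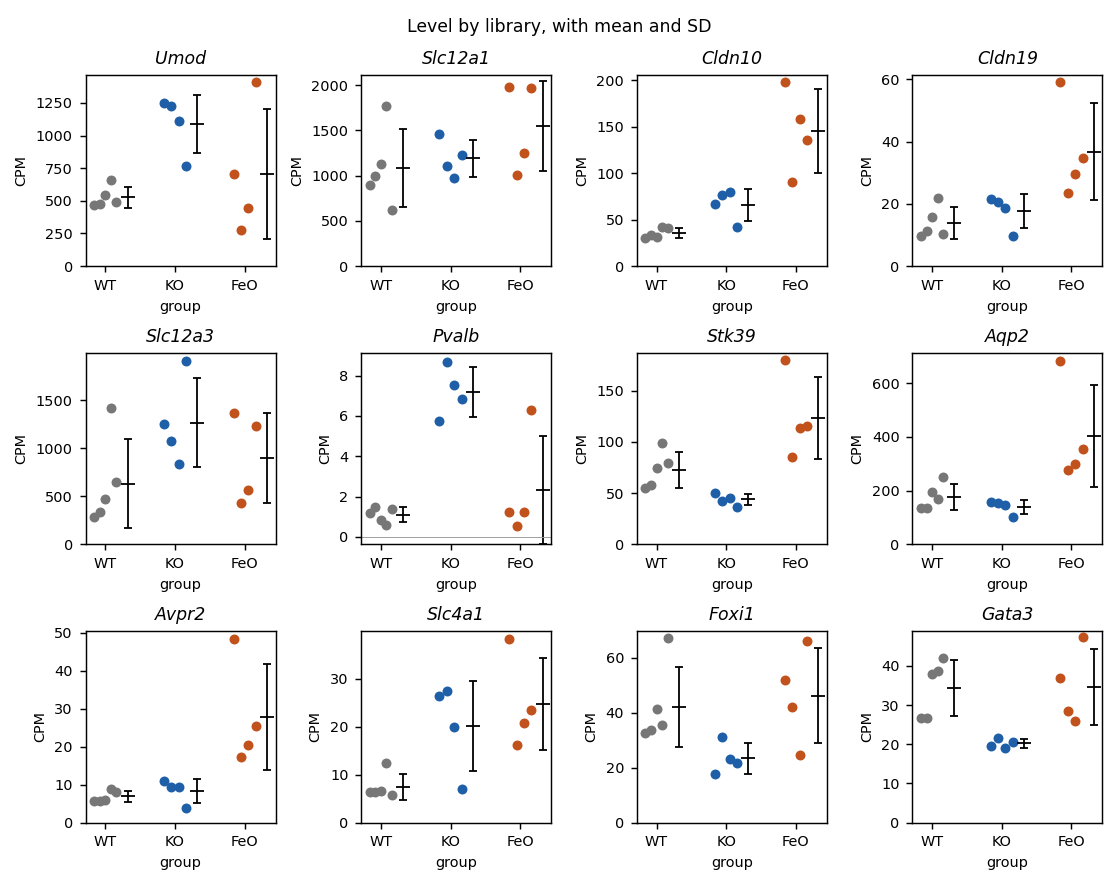
CPM in each library (points, from replicate 1 at the left) with the group mean and SD (bar to the right of the points) for 12 members, on linear axes, in WT, Spns1 KO (KO) and FeO. Umod and Pvalb lay higher in every Spns1 KO library than in all others except FeO 4, whereas Cldn10, Cldn19, Aqp2 and Avpr2 lay higher in every FeO library than in all others.

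Distal convoluted tubule genes moved in both directions in Spns1 KO, with Pvalb up and Trpm6, Wnk1 and Stk39 down among 7 members. These were 14.3% and 42.9%, beside 14.0% and 7.55% of all tested genes. The median log2 fold change was -0.55, the value of Trpm7, which like Wnk1 and Stk39 is among the broadly expressed members. The other members had 2.71 (Pvalb), 1.00 (Slc12a3), -0.15 (Wnk4) and -1.09 (Trpm6). In FeO, Stk39 was up and Trpm7 down, both broadly expressed, with a median of 0.09. Each was 14.3% of the members, beside 22.4% of all tested genes up and 19.7% down. Slc12a3 (chromosome 8 from 94329201 to 94366214) encodes NCC, the thiazide-sensitive carrier that marks the segment. Slc12a3 measured 282, 340.5, 473, 1417 and 649.5 CPM in WT 1 to 5, 1254, 1080.4, 832 and 1909.5 in Spns1 KO 1 to 4 and 1364, 430.2, 569.7 and 1232 in FeO 1 to 4. All Spns1 KO libraries lay above the WT libraries other than WT 4. Slc12a3 did not pass the limits, with 1.00 (standard error 0.45, edgeR adjusted p = 0.117) in Spns1 KO and 0.51 (standard error 0.45, edgeR adjusted p = 0.367) in FeO. Without WT 4 both values passed, at 1.56 (edgeR adjusted p = 0.0148) and 1.05 (edgeR adjusted p = 0.0391).

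Pvalb (chromosome 15 from 78191114 to 78206400) encodes parvalbumin, a calcium buffer of the early part of this segment. Pvalb measured 1.17, 1.48, 0.819, 0.601 and 1.39 CPM in WT 1 to 5, 5.72, 8.68, 7.55 and 6.84 in Spns1 KO 1 to 4 and 1.25, 0.552, 1.22 and 6.30 in FeO 1 to 4, from 17 to 384 counts per library. All 4 Spns1 KO libraries stood above every WT library, and FeO 4 alone of the FeO libraries reached their level. Its rise in Spns1 KO, 2.71 (standard error 0.52, edgeR adjusted p = 0.00245), was the largest change of any member. The FeO value was 1.08 (standard error 0.52, edgeR adjusted p = 0.103), and it was -0.10 without FeO 4 (edgeR adjusted p = 0.83). Between the models the difference was 1.63 (standard error 0.54, edgeR adjusted p = 0.0525), and 2.84 without FeO 4 (edgeR adjusted p = 0.000589). That difference also passed with median-ratio factors, no filter, a filter of 50 counts in 4 libraries, DESeq2, limma-voom and length and GC correction, at 1.63 to 2.22.

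Trpm6 (chromosome 19 from 18749983 to 18892511) encodes the apical magnesium channel of the segment, and Trpm7 (chromosome 2 from 126791565 to 126876230) its widely expressed relative. Trpm6 measured 21.7, 25.2, 40.5, 81.8 and 36.6 CPM in WT 1 to 5, 27.0, 18.0, 14.8 and 17.4 in Spns1 KO 1 to 4 and 45.7, 25.0, 19.5 and 37.7 in FeO 1 to 4. Spns1 KO 1 overlapped the lower WT libraries, and WT 4 was far above the rest. Trpm6 fell in Spns1 KO, at a log2 fold change of -1.09 (standard error 0.35, edgeR adjusted p = 0.0366), and the call was lost without Spns1 KO 2, 3 or 4 or WT 3, 4 or 5 (log2 fold changes of -1.11 to -0.67, edgeR adjusted p from 0.0515 to 0.113), with limma-voom (-0.94) and with length and GC correction (-0.74). Trpm7 measured 476, 495, 696, 895 and 468 CPM in WT 1 to 5, 447, 346, 369.6 and 495 in Spns1 KO 1 to 4 and 266, 337, 235 and 284 in FeO 1 to 4. FeO lay wholly below WT and Spns1 KO. Trpm7 fell in FeO, at a log2 fold change of -1.11 (standard error 0.22, edgeR adjusted p = 0.00136), whereas the Spns1 KO value was -0.55 (standard error 0.22, edgeR adjusted p = 0.0779). Length and GC correction reduced the FeO value to -0.42 (edgeR adjusted p = 0.0384).

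The kinases of this pathway differed from each other. Wnk1 (chromosome 6 from 119923969 to 120038672) and Wnk4 encode WNK kinases, and Stk39 (chromosome 2 from 68210445 to 68472268) encodes SPAK, which they activate and which phosphorylates NCC and NKCC2. Stk39 measured 55.3, 57.9, 74.1, 98.6 and 79.4 CPM in WT 1 to 5, 50.2, 42.5, 45.7 and 36.9 in Spns1 KO 1 to 4 and 180.0, 85.2, 114 and 115 in FeO 1 to 4. Spns1 KO lay wholly below WT and FeO, and FeO 2 was the sole FeO library inside the WT range. Stk39 fell in Spns1 KO, at a log2 fold change of -0.74 (standard error 0.22, edgeR adjusted p = 0.0239), and rose in FeO by 0.76 (standard error 0.21, edgeR adjusted p = 0.0101), and the models differed by -1.50 on the log2 scale (standard error 0.23, edgeR adjusted p = 0.00245). It was the sole member called in opposite directions in the 2 models. The Spns1 KO call was lost without Spns1 KO 2 or 3 or WT 3, 4 or 5 (log2 fold changes of -0.76 to -0.59, edgeR adjusted p from 0.0502 to 0.068) and after length and GC correction (-0.62). Wnk1 measured 1049, 1239, 1869, 3215 and 1358 CPM in WT 1 to 5, 877, 702, 735 and 1036 in Spns1 KO 1 to 4 and 1394, 662, 886 and 1209.8 in FeO 1 to 4. Every Spns1 KO library was below every WT library, by a small margin for Spns1 KO 4 against WT 1, and FeO overlapped both. Wnk1 fell in Spns1 KO, at a log2 fold change of -1.06 (standard error 0.32, edgeR adjusted p = 0.0265), and its FeO value was -0.75 (standard error 0.32, edgeR adjusted p = 0.0633). The Spns1 KO call was lost without Spns1 KO 1, 2 or 3 or WT 3 or 4 (log2 fold changes of -1.08 to -0.70, edgeR adjusted p from 0.0599 to 0.083) and after length and GC correction (-0.60), where the FeO value became 0.04. Wnk4 ranged over 298 to 453 CPM in WT, 252 to 375 in Spns1 KO and 276 to 485 in FeO, with log2 fold changes of -0.15 and 0.09 that did not pass the limits.

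Connecting tubule calcium genes gave a single call against WT, Atp2b1 down in FeO, among 4 members (25.0%, beside 19.7% of all tested genes). Calb1 (chromosome 4 from 15881264 to 15908064) encodes calbindin-D28k, the cytosolic calcium buffer. Calb1 measured 126, 135, 181, 356 and 173 CPM in WT 1 to 5, 216, 306, 225 and 217 in Spns1 KO 1 to 4 and 512, 92.6, 191 and 345 in FeO 1 to 4. The groups overlapped, and Calb1 did not pass the limits in Spns1 KO (0.31, standard error 0.39, edgeR adjusted p = 0.588) or in FeO (0.55, standard error 0.39, edgeR adjusted p = 0.258). Without FeO 2, which was the lowest library, the FeO value was 0.87 (edgeR adjusted p = 0.0476), and length and GC correction gave 1.18 (edgeR adjusted p = 0.0409). Trpv5, the apical calcium entry channel, ranged over 9.80 to 28.5 CPM in WT, 12.6 to 15.5 in Spns1 KO and 7.98 to 35.8 in FeO. Slc8a1, the sodium-calcium exchanger NCX1, ranged over 10.3 to 62.5, 13.7 to 19.5 and 8.66 to 37.3 in the same order. Trpv5 had log2 fold changes of -0.13 (Spns1 KO) and 0.44 (FeO), Slc8a1 had -0.58 and -0.40, and none passed.

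Atp2b1 (chromosome 10 from 98914406 to 99026143) encodes the calcium pump PMCA1, present in many cells. Atp2b1 measured 162, 168, 205, 243 and 142 CPM in WT 1 to 5, 204, 161, 182 and 162 in Spns1 KO 1 to 4 and 118, 99.1, 127 and 102 in FeO 1 to 4. Every FeO library was below every WT and Spns1 KO library, and the latter groups overlapped. Atp2b1 fell in FeO, at a log2 fold change of -0.72 (standard error 0.17, edgeR adjusted p = 0.0039), and was higher in Spns1 KO than in FeO by 0.67 (standard error 0.18, edgeR adjusted p = 0.0231), with -0.05 in Spns1 KO against WT. Length and GC correction reduced the first value to -0.12 and the second to 0.45, and neither then passed. The second was also lost without Spns1 KO 1 (0.59, edgeR adjusted p = 0.0703).

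Of 8 principal cell members, Aqp2, Aqp3, Aqp4, Avpr2 and Fxyd4 were upregulated in FeO, and Scnn1g was downregulated in Spns1 KO. These were 62.5% up, beside 22.4% of all tested genes, and 12.5% down, beside 7.55%. Of all tested genes, 14.0% were called up in Spns1 KO. In Spns1 KO, edgeR called 0 of the 8 up, against 1 (Fxyd4) at an unadjusted p under 0.05 and 1 each with DESeq2 and limma-voom. Between the models, 5 of the 8 were lower in Spns1 KO (62.5%, beside 8.1% of all tested genes), more than in any other segment. Their median log2 fold change was 0.98 in FeO and -0.29 in Spns1 KO, both against WT. The summed level of the 8 genes was 875 to 2054 CPM in FeO, above every WT library (525 to 866) and every Spns1 KO library (474 to 637). FeO 1, which had the lowest sum of proximal markers, held the highest sum. FeO 2 held the lowest sum of the FeO libraries, 875 CPM, close to the highest WT library, and it was lowest of them for 30 of the 37 members.

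Aqp2 (chromosome 15 from 99579055 to 99584547) encodes the apical water channel that vasopressin recruits. Aqp2 measured 135, 135, 196, 168 and 250.1 CPM in WT 1 to 5, 159.5, 152, 147 and 103 in Spns1 KO 1 to 4 and 685, 277, 298 and 355 in FeO 1 to 4. All FeO libraries stood above all others, FeO 1 by far, and Spns1 KO overlapped WT. Aqp2 rose in FeO by 1.19 (standard error 0.27, edgeR adjusted p = 0.0028), and by 0.83 without FeO 1 (edgeR adjusted p = 0.00991). Its Spns1 KO value was -0.33 (standard error 0.27, edgeR adjusted p = 0.382), and the models differed by -1.53 on the log2 scale (standard error 0.29, edgeR adjusted p = 0.00557). After length and GC correction the Spns1 KO value passed the limits, at -0.87 (edgeR adjusted p = 0.042). Avpr2 (chromosome X from 73892102 to 73895502) encodes the V2 vasopressin receptor that signals to Aqp2. Avpr2 measured 5.55, 5.70, 6.02, 8.94 and 8.15 CPM in WT 1 to 5, 10.9, 9.36, 9.28 and 3.82 in Spns1 KO 1 to 4 and 48.2, 17.3, 20.4 and 25.3 in FeO 1 to 4. FeO was again wholly above both other groups, and Spns1 KO 4 was the lowest library. Avpr2 rose in FeO by 2.02 (standard error 0.32, edgeR adjusted p = 0.000517), and by 1.63 without FeO 1 (edgeR adjusted p = 0.00161). The models differed by -1.74 on the log2 scale (standard error 0.34, edgeR adjusted p = 0.00623). Avpr2 is overlapped on the other strand by Arhgap4 and L1cam, and since the sources used here do not state stranded counting, reads from them cannot be told apart where exons overlap.

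Both basolateral water channels also rose in FeO. Aqp3 (chromosome 4 from 41092722 to 41098183) measured 42.6, 44.1, 60.8, 64.5 and 75.2 CPM in WT 1 to 5, 102, 85.3, 82.7 and 40.1 in Spns1 KO 1 to 4 and 209, 81.5, 149 and 173 in FeO 1 to 4. Each FeO library was above WT, and Spns1 KO 1 to 3 lay above FeO 2. Aqp3 rose in FeO by 1.41 (standard error 0.28, edgeR adjusted p = 0.00144) and was lower in Spns1 KO than in FeO, at a log2 difference of -0.98 (standard error 0.30, edgeR adjusted p = 0.0395), the latter lost without Spns1 KO 2, 3 or 4, WT 3 or FeO 1, 3 or 4 (log2 fold changes of -1.03 to -0.77, edgeR adjusted p from 0.0506 to 0.123) and after length and GC correction (-0.92). Aqp4 measured 71.1, 64.7, 101, 182 and 60.4 CPM in WT 1 to 5, 91.9, 47.2, 76.4 and 33.1 in Spns1 KO 1 to 4 and 309, 201, 156 and 191 in FeO 1 to 4. WT 4 reached the FeO range, and all Spns1 KO libraries lay below all FeO libraries. Aqp4 rose in FeO by 1.16 (standard error 0.35, edgeR adjusted p = 0.0139), the Spns1 KO value was -0.62 (standard error 0.35, edgeR adjusted p = 0.208), and the models differed by -1.79 on the log2 scale (standard error 0.38, edgeR adjusted p = 0.00847).

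No ENaC subunit passed the limits in FeO against WT in edgeR. Scnn1a (chromosome 6 from 125320659 to 125344943), Scnn1b and Scnn1g (chromosome 7 from 121734479 to 121768475) encode the alpha, beta and gamma subunits of the sodium channel. Scnn1a measured 170.4, 188, 244, 299 and 286 CPM in WT 1 to 5, 178, 162, 163 and 185 in Spns1 KO 1 to 4 and 599, 213, 247 and 398 in FeO 1 to 4. The FeO and WT ranges overlapped, and Spns1 KO lay below FeO. Scnn1a did not pass against WT, at 0.62 (standard error 0.26, edgeR adjusted p = 0.0684) in FeO and -0.46 (standard error 0.27, edgeR adjusted p = 0.22) in Spns1 KO, but it was lower in Spns1 KO than in FeO, at a log2 difference of -1.08 (standard error 0.28, edgeR adjusted p = 0.0211). That call was lost without Spns1 KO 2 or FeO 1 (log2 fold changes of -1.05 to -0.72, edgeR adjusted p from 0.0555 to 0.0759), while the FeO value passed without WT 4, FeO 2 or FeO 3, at 0.73, 0.82 and 0.76, and with DESeq2 or no filter, at 0.63 and 0.69. Scnn1g measured 54.0, 56.1, 81.9, 87.6 and 108 CPM in WT 1 to 5, 46.6, 47.7, 33.7 and 40.8 in Spns1 KO 1 to 4 and 77.9, 39.3, 43.2 and 73.3 in FeO 1 to 4. Spns1 KO was wholly below WT, and FeO overlapped both. Scnn1g fell in Spns1 KO, at a log2 fold change of -0.87 (standard error 0.25, edgeR adjusted p = 0.0194), lost without Spns1 KO 3 or WT 5 (log2 fold changes of -0.78 to -0.70, edgeR adjusted p from 0.0525 to 0.0718), and its FeO value was -0.41. Scnn1b, which Cog7 overlaps on the other strand, ranged over 40.0 to 69.6 CPM in WT, 35.1 to 55.8 in Spns1 KO and 39.7 to 114 in FeO, with -0.24 and 0.49 on the log2 scale and no call. Without FeO 2 its FeO value was 0.70 (edgeR adjusted p = 0.0263).

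Fxyd4 (chromosome 6 from 117933559 to 117937692) encodes CHIF, a regulator of the sodium pump in the collecting duct. Fxyd4 measured 6.45, 6.81, 7.87, 5.83 and 9.03 CPM in WT 1 to 5, 12.5, 13.6, 13.5 and 12.5 in Spns1 KO 1 to 4 and 11.9, 6.10, 8.01 and 24.1 in FeO 1 to 4. All Spns1 KO libraries were above WT and close to each other, while FeO ran from inside the WT range to FeO 4, the highest of all. The FeO value, 0.80 (standard error 0.30, edgeR adjusted p = 0.0418), passed the limits and the Spns1 KO value, 0.86 (standard error 0.30, edgeR adjusted p = 0.0508), narrowly did not. The FeO call was lost without Spns1 KO 1 or 2, WT 1, 2, 3 or 4 or FeO 1 or 4 (log2 fold changes of 0.29 to 0.84, edgeR adjusted p from 0.051 to 0.279). It was also lost with upper-quartile factors (0.79), library totals (0.75), limma-voom (0.61), a fit of the 2 groups alone (0.80) and length and GC correction (0.31). The Spns1 KO value passed with DESeq2, limma-voom, median-ratio factors, no filter and a fit of the 2 groups alone, and without WT 5 or any 1 FeO library, at 0.86 to 0.97.

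Intercalated cell genes split by member. Slc4a1 (chromosome 11 from 102348824 to 102366203) encodes AE1, the basolateral chloride-bicarbonate exchanger of acid-secreting cells, and is also the band 3 protein of red cells. Slc4a1 measured 6.45, 6.32, 6.58, 12.3 and 5.83 CPM in WT 1 to 5, 26.3, 27.5, 19.9 and 6.91 in Spns1 KO 1 to 4 and 38.3, 16.2, 20.9 and 23.4 in FeO 1 to 4. FeO was wholly above WT, and Spns1 KO 1 to 3 were above it while Spns1 KO 4 was inside the WT range. Slc4a1 rose in both models, by 1.43 (standard error 0.35, edgeR adjusted p = 0.0103) in Spns1 KO and 1.72 (standard error 0.36, edgeR adjusted p = 0.00173) in FeO. Red cell markers moved too, with all 5 tested (Hbb-bs, Hbb-bt, Hba-a1, Hba-a2 and Alas2) up in Spns1 KO and 4 of them up in FeO. These were 100% and 80.0% of the markers, beside 14.0% and 22.4% of all tested genes. The summed CPM of the red cell markers was 9.40 to 36.5 in WT, 51.8 to 175 in Spns1 KO and 26.3 to 238 in FeO. FeO 1, the library with the highest Slc4a1, had an erythroid sum of 26.3 CPM, inside the WT range, and FeO 4, with the highest erythroid sum, had 23.4 CPM of Slc4a1. Among the Spns1 KO libraries, Spns1 KO 2 was highest in both, with an erythroid sum of 175 CPM, and Spns1 KO 4 was lowest in both, with 51.8. The part of red cells in the rise of Slc4a1 was not tested.

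Slc26a4 (chromosome 12 from 31519827 to 31559969) encodes pendrin, the apical exchanger of base-secreting cells. Slc26a4 measured 107, 109, 143, 195 and 181 CPM in WT 1 to 5, 84.6, 96.5, 91.8 and 67.9 in Spns1 KO 1 to 4 and 412, 82.9, 179 and 159.6 in FeO 1 to 4. Spns1 KO lay wholly below WT, and FeO 1 was more than 2 times the next FeO library. It did not pass against WT (-0.79, standard error 0.34, edgeR adjusted p = 0.11, in Spns1 KO and 0.50, standard error 0.34, edgeR adjusted p = 0.231, in FeO). Slc26a4 was lower in Spns1 KO than in FeO, at a log2 difference of -1.29 (standard error 0.36, edgeR adjusted p = 0.0287), a call lost without Spns1 KO 1, 2 or 4 or FeO 1 (log2 fold changes of -1.35 to -0.72, edgeR adjusted p from 0.0542 to 0.115). Without FeO 1 the Spns1 KO value against WT passed (-0.76, edgeR adjusted p = 0.0328) and the FeO value was -0.05. Foxi1 (chromosome 11 from 34204338 to 34208089) encodes the forkhead factor that specifies these cells. Foxi1 measured 32.6, 33.7, 41.5, 35.5 and 67.3 CPM in WT 1 to 5, 17.6, 31.1, 23.2 and 21.6 in Spns1 KO 1 to 4 and 52.0, 42.1, 24.8 and 66.0 in FeO 1 to 4. Spns1 KO was wholly below WT, and FeO overlapped WT. Foxi1 fell in Spns1 KO, at a log2 fold change of -0.85 (standard error 0.28, edgeR adjusted p = 0.0369), and was lower there than in FeO, at a log2 difference of -0.98 (standard error 0.29, edgeR adjusted p = 0.0337). The first call was lost without Spns1 KO 1, 3 or 4 or WT 3, 4 or 5 (log2 fold changes of -0.89 to -0.59, edgeR adjusted p from 0.0503 to 0.12) and with no filter (-0.79), and the second without Spns1 KO 1, 3 or 4 or FeO 1 or 4 (log2 fold changes of -0.98 to -0.76, edgeR adjusted p from 0.0565 to 0.0927). Atp6v1b1, a subunit of the apical proton pump, ranged over 64.7 to 108 CPM in WT, 62.9 to 92.0 in Spns1 KO and 42.5 to 118 in FeO, with -0.04 and 0.16 on the log2 scale and no call.

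Of the 5 genes shared by several segments, Bsnd (chromosome 4 from 106483456 to 106492283) encodes barttin, the subunit that chloride channels of the thick limb and distal nephron require. Bsnd measured 46.9, 45.8, 51.3, 57.3 and 71.9 CPM in WT 1 to 5, 43.2, 55.9, 40.2 and 31.6 in Spns1 KO 1 to 4 and 137, 84.0, 60.5 and 95.7 in FeO 1 to 4. Spns1 KO lay below every FeO library and overlapped WT, and FeO 3 lay inside the WT range. Bsnd rose in FeO by 0.79 (standard error 0.22, edgeR adjusted p = 0.0103) and was lower in Spns1 KO than in FeO, at a log2 difference of -1.14 (standard error 0.24, edgeR adjusted p = 0.00814). Gata3 (chromosome 2 from 9857078 to 9890034) encodes a transcription factor of the collecting duct. Gata3 measured 26.7, 26.7, 38.0, 38.6 and 42.0 CPM in WT 1 to 5, 19.5, 21.7, 19.1 and 20.6 in Spns1 KO 1 to 4 and 36.8, 28.4, 25.9 and 47.5 in FeO 1 to 4. The 4 Spns1 KO libraries were close together and below every other library. Gata3 fell in Spns1 KO, at a log2 fold change of -0.77 (standard error 0.19, edgeR adjusted p = 0.0117), its FeO value was 0.01, and the models differed by -0.78 on the log2 scale (standard error 0.20, edgeR adjusted p = 0.0207), lost without Spns1 KO 1 or FeO 1 (log2 fold changes of -0.76 to -0.74, edgeR adjusted p from 0.0549 to 0.055). Gata3 is overlapped by a gene on its own strand (9230102O04Rik) and by others on the opposite strand.

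Hsd17b11 (chromosome 5 from 103989762 to 104021919) encodes a 17-beta-hydroxysteroid dehydrogenase found in many tissues. Hsd17b11 measured 36.6, 35.9, 41.5, 40.4 and 36.7 CPM in WT 1 to 5, 76.1, 67.4, 86.8 and 28.6 in Spns1 KO 1 to 4 and 90.8, 60.2, 90.5 and 70.4 in FeO 1 to 4. FeO was wholly above WT, as were Spns1 KO 1 to 3, while Spns1 KO 4 was the lowest of all. Hsd17b11 rose by 1.03 (standard error 0.24, edgeR adjusted p = 0.00349) in FeO and by 0.76 (standard error 0.24, edgeR adjusted p = 0.0323) in Spns1 KO, and the latter call was lost without Spns1 KO 1, 2 or 3 or WT 1, 2, 3 or 5 (log2 fold changes of 0.59 to 0.80, edgeR adjusted p from 0.0523 to 0.129), with library totals (0.63) and with limma-voom (0.64). Fxyd2, the gamma subunit of the sodium pump, averaged 921 ± 101 CPM (SD, n = 5) in WT, 954 ± 169 CPM (SD, n = 4) in Spns1 KO and 843 ± 291 CPM (SD, n = 4) in FeO. Tfap2b, the AP-2 beta factor of the distal nephron, averaged 116 ± 33.0 CPM (SD, n = 5), 79.8 ± 7.83 CPM (SD, n = 4) and 118 ± 36.6 CPM (SD, n = 4) in the same order. Neither was called, with Spns1 KO values of 0.05 and -0.54 and FeO values of -0.13 and 0.02 on the log2 scale.

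**Figure D4:**
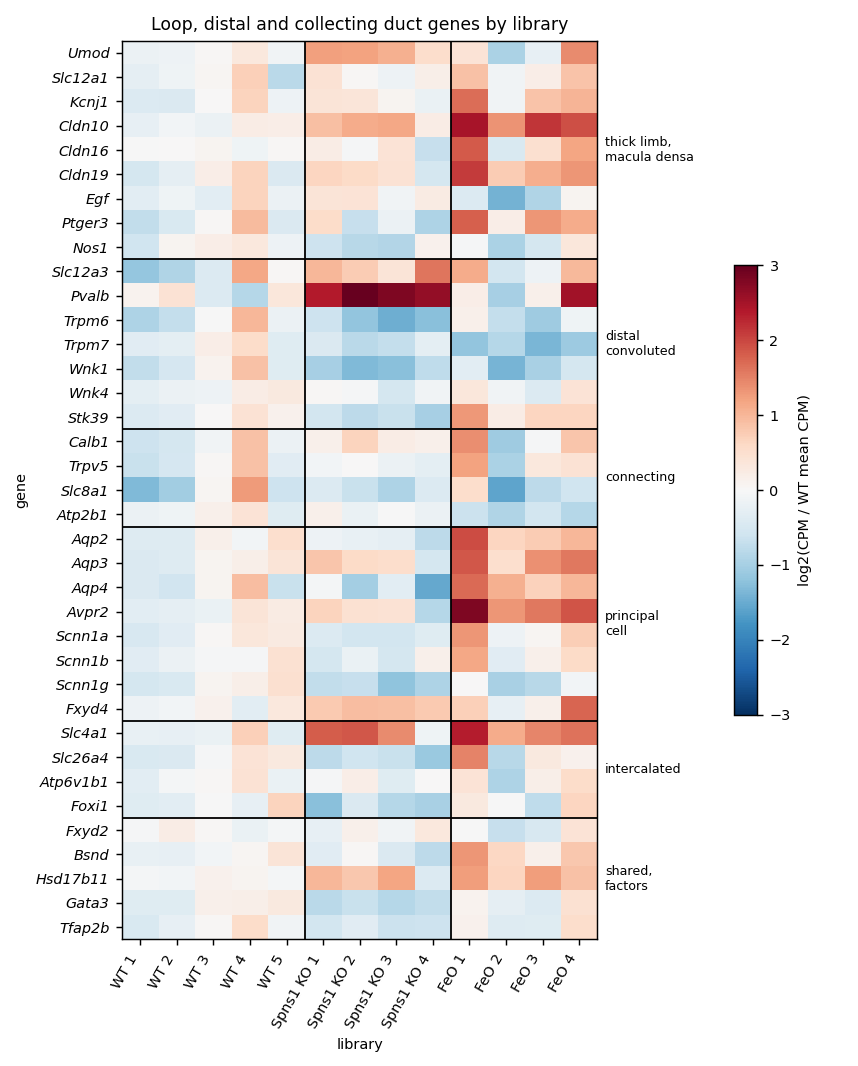
Log2 ratio of each library's CPM to the WT mean for the 37 members (rows, by segment) in the 13 libraries (columns, by group), with red above and blue below the WT mean and colour capped at 3 in either direction. FeO 1 is red for most rows, FeO 2 is blue for Umod, Egf, Calb1 and Slc8a1 but red for Cldn10, Aqp2, Aqp4 and Avpr2, and Pvalb is the row of strongest red in Spns1 KO.

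The same segments were also read through 39 other genes, chosen like the members with earlier results of these data known. This list was not split into restricted and broadly expressed genes, so its changes need not come from these segments alone. In it, edgeR called 7 up and 5 down in the libraries labelled Spns1 KO, against 15 and 3 in FeO. These are 17.9% and 12.8% in Spns1 KO, beside 14.0% and 7.55% of all tested genes, and 38.5% and 7.69% in FeO, beside 22.4% and 19.7%. In the thick limb and macula densa, 1 of 11 rose (9.09%) and 2 fell (18.2%) in Spns1 KO. In FeO 2 rose (18.2%) and 1 fell (9.09%), both below the shares of all tested genes. Cldn14, a claudin that blocks the pore of the claudins 16 and 19, fell in both, at log2 fold changes of -2.79 (standard error 0.51, edgeR adjusted p = 0.0017) in Spns1 KO and -1.34 (standard error 0.46, edgeR adjusted p = 0.0287) in FeO. Its counts were very low, so both values are uncertain. They were 20, 17, 25, 10 and 23 in WT 1 to 5, 5, 5, 2 and 3 in Spns1 KO 1 to 4 and 11, 10, 1 and 6 in FeO 1 to 4. Ppp1r1a, a protein phosphatase inhibitor, rose in both (1.40 and 2.06), Ptgs2, the cyclooxygenase of the macula densa, fell in Spns1 KO (-1.12, standard error 0.37, edgeR adjusted p = 0.0402), and Sostdc1, a secreted BMP antagonist, rose in FeO (1.99, standard error 0.44, edgeR adjusted p = 0.0027). In the distal convoluted and connecting tubule, 3 of 9 rose in Spns1 KO (33.3%) and 2 in FeO (22.2%, close to the share of all tested genes). Klk1, tissue kallikrein, rose in Spns1 KO by 2.06 (standard error 0.37, edgeR adjusted p = 0.00161), though it belongs to a family of close copies and its count is uncertain. S100g, the small vitamin D-dependent calbindin, rose in both (1.54 and 1.45), Kcnj16, a basolateral potassium channel, in Spns1 KO (0.92), and the transcription factor gene Emx1 in FeO (0.72).

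Among 7 other principal cell and aldosterone response genes, 1 rose (14.3%) and 2 fell (28.6%) in Spns1 KO, and 4 rose (57.1%) and 2 fell (28.6%) in FeO. Of all tested genes, 14.0% rose and 7.55% fell in Spns1 KO, and 22.4% rose and 19.7% fell in FeO. Hsd11b2, which shields the mineralocorticoid receptor from glucocorticoids, rose in both (0.92 and 1.70). Nedd4l, the ubiquitin ligase that removes ENaC from the membrane, fell in both (-1.02 and -0.90). Sgk1, an aldosterone-induced kinase, fell in FeO (-1.49, standard error 0.42, edgeR adjusted p = 0.01), and Slc14a2, the urea transporter of the inner medulla, rose there (1.28, standard error 0.27, edgeR adjusted p = 0.00192). Elf5, a transcription factor of principal cells, fell in Spns1 KO, at a log2 fold change of -0.93 (standard error 0.18, edgeR adjusted p = 0.00304), and rose in FeO by 0.64 (standard error 0.18, edgeR adjusted p = 0.0104), and the models differed by -1.56 on the log2 scale (standard error 0.19, edgeR adjusted p = 0.000683). Of 12 other intercalated cell genes, 2 rose (16.7%) and 1 fell (8.33%) in Spns1 KO, and 7 rose in FeO (58.3%). Aqp6, an aquaporin of acid-secreting cells, rose in both (1.61 and 1.33), as did the proton pump subunit gene Atp6v1g3 (1.01 and 1.13). Rhbg, an ammonia transporter, rose in FeO (1.54, standard error 0.35, edgeR adjusted p = 0.00282), and Hmx2, a homeobox gene, fell in Spns1 KO (-0.83, standard error 0.28, edgeR adjusted p = 0.0448).

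Markers of other kidney cells were counted beside these segments. Of all tested genes, 14.0% were called up in Spns1 KO and 22.4% in FeO, where 19.7% were down. Between the models, 6.76% were higher in Spns1 KO. Of 12 proximal tubule markers, 8 were up in Spns1 KO against WT (66.7%), and in FeO 1 was up and 1 down (8.33% each). Between the models, 7 of the 12 were higher in Spns1 KO (58.3%). Leukocyte markers summed to 77.8 to 94.6 CPM in WT, 169.8 to 208 in Spns1 KO and 101 to 186 in FeO. In Spns1 KO 1 of 7 was called up (14.3%, close to the share of all tested genes), Cd74, which antigen-presenting cells express. In FeO 5 of 7 were called up (71.4%). Cd74 had the highest log2 fold change of the 7 in Spns1 KO, 2.02, and their median there was 0.49. Podocyte markers were called up for 2 of 6 in Spns1 KO and for 3 of 6 in FeO, with 1 down, and their sum was highest in FeO 1 at 665 CPM against 186 to 315 in WT. Endothelial markers gave 2 of 7 up in each model (28.6%) and 1 down in FeO (14.3%), and fibroblast markers gave 2 of 5 up in Spns1 KO (40.0%). The part of these cell types in the members' results was not tested.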

How the data were processed

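Thiol-tagged kidney RNA was biotinylated, captured on streptavidin, selected for poly-A and sequenced as paired-end reads with a TruSeq kit, and strand-specific counting is not stated. The authors deposited 1 table of estimated counts per gene symbol, whole numbers without normalization. The submitters' processing notes name bcl2fastq 2.19, kallisto 0.44.0, DESeq2 and GRCm38, whereas the paper describes STAR and HTSeq, so how the counts were made is uncertain. Such estimates split reads between similar transcripts, but at most 2.00% of any member's 31-base sequences occurred in another gene. Of the members, 15 are overlapped by a gene on the other strand.

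Counts were scaled with TMM factors in edgeR 4.0.16 (R 4.3.3), filtered with filterByExpr and tested by quasi-likelihood in 1 fit of 13 libraries with group as the sole term. Values per library are CPM, which cannot be compared between genes, and levels between genes were given per kilobase of GENCODE M21 transcript. Alternatives used DESeq2 1.42.0, limma-voom 3.58.1, other scalings and filters, glmTreat, length and GC correction (mgcv 1.9.3), a replicate block and each library left out. The fit was tested on simulated counts. Members and gene lists were chosen with earlier results of these data known. Values in every library are given for members called in any comparison and for 7 anchors (Umod, Slc12a1, Slc12a3, Calb1, Aqp2, Slc4a1 and Slc26a4). Of the other segment genes, at most the 3 called genes with the largest change per segment in each comparison with WT were named.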

Additional observations from a re-analysis of the deposited data

Results flagged for a closer look

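Single libraries stood far from their group, by Dixon's criterion, in 7 of 129 tests over the members and the segment sums, where chance at 1 in 20 would give 6.45. WT 4 was highest for 4 of these, Egf at 1254 CPM, Calb1 at 356, Slc4a1 at 12.3 and the thick ascending limb sum at 4216. The others were Foxi1 in WT 5 at 67.3 CPM, Calb1 in the library labelled Spns1 KO 2 at 306 and Pvalb in FeO 4 at 6.30.

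The effects of the 2 models, which share their WT libraries, differed past the limits for 14 members when Spns1 KO was tested directly against FeO with edgeR's quasi-likelihood test. The log2 difference, Spns1 KO minus FeO, was -1.14 for Cldn10, -1.06 for Cldn19, -1.40 for Ptger3, -1.50 for Stk39, 0.67 for Atp2b1, -1.53 for Aqp2, -0.98 for Aqp3, -1.79 for Aqp4, -1.74 for Avpr2, -1.08 for Scnn1a, -1.29 for Slc26a4, -0.98 for Foxi1, -1.14 for Bsnd and -0.78 for Gata3. Aqp4, Avpr2, Aqp2 and Stk39 were the largest, and Atp2b1 was the sole member higher in Spns1 KO. Without FeO 1, 6 of the 13 negative differences were still called. Over all tested genes, 636 were then called lower in Spns1 KO than in FeO, against 1334 with all libraries.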

How the results depend on the processing

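Across 2775 pairs of a member's fold change and an alternative, 2519 kept their direction and their side of the limits, 149 lost a call, 54 gained one and 53 changed sign. No fold change that was called changed sign. The following alternatives moved a count of called genes by over 1.5 times. Scaling by library totals gave 3 up in Spns1 KO vs WT. Testing against the fold limit (glmTreat) gave 1 up in Spns1 KO vs WT, 0 down in Spns1 KO vs WT, 7 up in FeO vs WT, 1 down in FeO vs WT, 0 up in Spns1 KO vs FeO, 4 down in Spns1 KO vs FeO, 5 other segment genes in Spns1 KO vs WT and 9 other segment genes in FeO vs WT. Length and GC correction gave 1 down in FeO vs WT. Median-ratio factors, no filter, a filter of 50 counts in 4 libraries and limma-voom gave 2 up in Spns1 KO vs FeO. DESeq2 gave 3 up in Spns1 KO vs FeO. Fitting only the 2 groups compared gave 8 down in Spns1 KO vs FeO. Leaving out each library in turn gave 3 to 6 up in Spns1 KO vs WT, 1 to 7 down in Spns1 KO vs WT, 10 to 19 up in FeO vs WT, 2 to 3 down in FeO vs WT, 0 to 4 up in Spns1 KO vs FeO, 6 to 16 down in Spns1 KO vs FeO, 7 to 15 other segment genes in Spns1 KO vs WT, 15 to 21 other segment genes in FeO vs WT. Of these ranges, those up or down in FeO vs WT and those of other segment genes in FeO vs WT stayed within 1.5 times the reported count. A test against a fold limit asks for more than a test against no change, and the cause of the other shifts was not tested. With the replicate block, counts were 3 up in Spns1 KO vs WT (reported 5), 2 down in Spns1 KO vs WT (reported 6), 11 up in FeO vs WT (reported 14), 2 down in FeO vs WT (reported 2), 1 up in Spns1 KO vs FeO (reported 1), 10 down in Spns1 KO vs FeO (reported 13), 9 other segment genes in Spns1 KO vs WT (reported 12), 17 other segment genes in FeO vs WT (reported 18). Same-numbered libraries correlated at -0.397 to 0.223 over 12 pairs, 3 of them over 0.1, and 1 of 13 libraries matched its own number best, so the numbers were not treated as pairs.

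Signs changed only for uncalled values. Scaling by library totals gave -0.10 for Cldn16 in Spns1 KO vs WT, -0.076 for Fxyd2 in Spns1 KO vs WT, -0.044 for Gata3 in FeO vs WT, -0.027 for Tfap2b in FeO vs WT and -0.029 for Fxyd4 in Spns1 KO vs FeO. Limma-voom gave -0.024 for Cldn16 in Spns1 KO vs WT, 0.014 for Calb1 in Spns1 KO vs FeO and 0.018 for Slc8a1 in Spns1 KO vs FeO. Length and GC correction gave -0.36 for Cldn16 in Spns1 KO vs WT, 0.078 for Slc8a1 in Spns1 KO vs WT, 0.33 for Atp2b1 in Spns1 KO vs WT, -0.56 for Fxyd2 in Spns1 KO vs WT, 0.45 for Nos1 in FeO vs WT, 0.16 for Trpm6 in FeO vs WT, 0.041 for Wnk1 in FeO vs WT, 0.75 for Slc8a1 in FeO vs WT, -0.12 for Atp6v1b1 in FeO vs WT and -0.024 for Foxi1 in FeO vs WT. No filter gave 0.0074 for Atp2b1 in Spns1 KO vs WT and 0.024 for Atp6v1b1 in Spns1 KO vs WT. Upper-quartile factors gave -0.0043 for Gata3 in FeO vs WT. A filter of 50 counts in 4 libraries gave -0.0089 for Gata3 in FeO vs WT. The replicate block gave -0.0013 for Tfap2b in FeO vs WT. When each library was left out, the sign also changed for Cldn16 in Spns1 KO vs WT (-0.12 to 0.21), Ptger3 in Spns1 KO vs WT (-0.56 to 0.19), Trpv5 in Spns1 KO vs WT (-0.26 to 0.22), Slc8a1 in Spns1 KO vs WT (-0.79 to 0.068), Atp2b1 in Spns1 KO vs WT (-0.13 to 0.081), Atp6v1b1 in Spns1 KO vs WT (-0.12 to 0.11), Fxyd2 in Spns1 KO vs WT (-0.052 to 0.14), Umod in FeO vs WT (-0.13 to 0.70), Pvalb in FeO vs WT (-0.10 to 1.42), Trpm6 in FeO vs WT (-0.57 to 0.058), Wnk4 in FeO vs WT (-0.00017 to 0.23), Slc8a1 in FeO vs WT (-0.91 to 0.25), Slc26a4 in FeO vs WT (-0.049 to 0.79), Foxi1 in FeO vs WT (-0.063 to 0.38), Fxyd2 in FeO vs WT (-0.33 to 0.034), Gata3 in FeO vs WT (-0.15 to 0.13), Tfap2b in FeO vs WT (-0.16 to 0.22), Calb1 in Spns1 KO vs FeO (-0.53 to 0.21), Slc8a1 in Spns1 KO vs FeO (-0.42 to 0.35), Fxyd4 in Spns1 KO vs FeO (-0.16 to 0.59), Slc4a1 in Spns1 KO vs FeO (-0.48 to 0.0069), each with its range over 13 fits.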
